A study of Astyanax mexicanus with 22 samples.

Results

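The comparison described here asks whether the difference between an old and a new batch of ovary samples was the same in cavefish and in surface fish of Astyanax mexicanus, in animals labelled as controls. For every gene, the old minus new difference of surface fish was subtracted from the old minus new difference of Pachón fish on the log2 scale, and this quantity is called the interaction below. It used 12 of the 22 bulk RNA-seq libraries of the series: 4 Pachón old, 2 Pachón new, 4 surface old and 2 surface new controls. All were right-side ovaries, labelled wild type (WT) and Non-treated, and no transgene, deletion or drug is named for any group. Pachón fish come from a cave and surface fish from open water. The design text gives ages of about 500 and 1200 days after fertilization for the batches, and does not say which batch had which age. Age, handling and sequencing of a batch therefore cannot be told apart, and old and new are used only as batch names. The other 10 libraries, from starved fish of the same morphs and batches, were no term of the interaction. They entered the fit's estimate of the spread, the filter on low counts and the scaling. These libraries also gave the same contrast in a separate set of samples. Whether each library came from a fish of its own is not labelled. The p-values therefore measure the spread between these samples, which may be technical.

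Pachón cavefish are blind and pale, and are known for large fat stores, insulin resistance and a high tolerance of food shortage. A fish ovary holds oocytes at many stages, each wrapped in granulosa and theca cells, within a stroma that carries blood vessels, smooth muscle and immune cells. Because the tissue was sequenced whole, a transcript level depends both on the cells present and on their activity. Fewer cells of a type and less RNA per cell cannot be told apart in such samples. The label of ovary was checked against oocyte genes in all 12 libraries. The oocyte growth factor gene gdf9 lay between 48.9 and 80.5 CPM (counts per 1e+06 counts in genes, with library sizes scaled by TMM factors), and the related growth factor gene bmp15 between 81.0 and 141.6 CPM.

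Each control library held 4860620 to 6511380 counts in genes (median 5681480), which were 55.4% to 64.1% of its listed reads, and TMM factors lay between 0.987 and 1.07. The surface new controls had counts in more genes (19437 and 19918) than the Pachón old (18326 to 18920), Pachón new (18574 and 18620) and surface old controls (18055 to 18757). Of 15607 genes abundant enough for a test, the median standard deviation of log2 CPM within a group was 0.191 in Pachón old, 0.195 in Pachón new, 0.235 in surface old and 0.163 in surface new controls. Principal components of log2 CPM placed the morphs apart on the first component, with 48.0% of the variance. On the second, with 15.3%, all 6 Pachón controls lay between -4.40 and 7.91 whatever their batch, while the surface old controls lay between 15.5 and 45.2 and the surface new controls at -66.4 and -65.6.

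**Figure D1:**
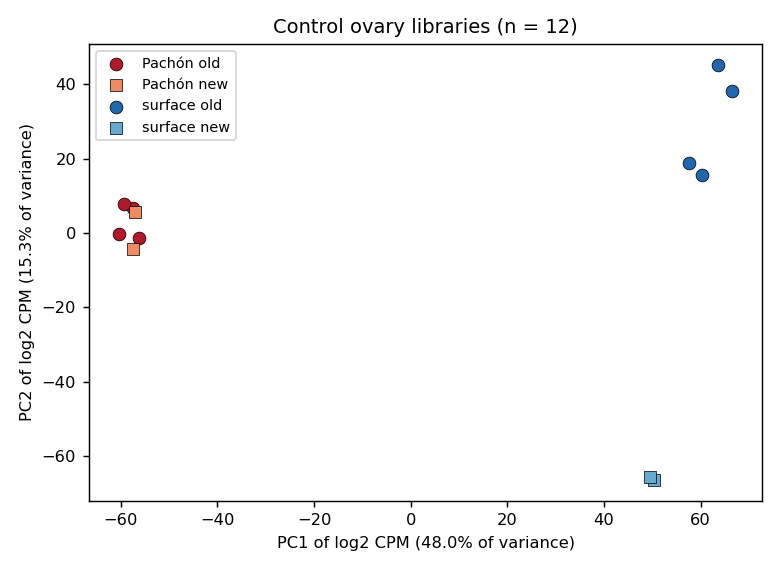
Principal components of log2 CPM in the 12 control libraries, each point 1 library, with circles for the old and squares for the new batch. Pachón old and new libraries lie together, and the 2 surface new libraries lie at -66.4 and -65.6 on the second component, below the surface old libraries at 15.5 to 45.2.

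The interaction was called, at an adjusted p under 0.05 in edgeR's quasi-likelihood test, for 159 of the 15607 genes, or 1.02%. It was positive for 91 genes (0.583%, named called higher below) and negative for 68 (0.436%, called lower). For 132 of the 159, the batch differences of the 2 morphs were 2-fold or more apart. In all, 2053 genes had an unadjusted p under 0.05. The surface difference was larger in size than the Pachón difference for 147 genes and smaller for 12, and the Pachón difference was under 0.5 log2 units in size for 115. Among the 91 genes called higher, the median old minus new difference was 0.38 in Pachón and -2.23 in surface controls. Among the 68 called lower it was -0.09 in Pachón and 1.45 in surface controls. Over all genes tested, the medians were -0.01 and 0.01.

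Each morph's batch difference was also tested by itself, with the same numbers of libraries in both morphs. Old against new Pachón controls gave 5 called genes (0.032%; 4 higher and 1 lower, 560 with an unadjusted p under 0.05). By voom with sample weights it gave 6, of which 1 was higher and 5 lower, and 2 were among those 5 genes. Old against new surface controls gave 1148 called genes (7.36%), of which 468 were higher (3%) and 680 lower (4.36%). Of the 159 genes of the interaction, 148 were called in the surface batch contrast, 5 in the Pachón batch contrast, 0 in both and 6 in neither. These tests share their libraries with the interaction, so the overlap says where the values lie and is no separate result. The 148 genes were 12.9% of the surface calls. The surface old and new libraries did not overlap for 151 of the 159 genes (95.0%, against 33.6% of all genes tested). The Pachón old and new libraries did not overlap for 48 of the 159 (30.2%, against 13.1%).

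These counts moved with the libraries included. The interaction gave 64 calls without Pachón new control 2, 76 without Pachón new control 1, 93, 103 and 100 without Pachón old controls 2, 3 and 4, 102 without surface old control 2, and 105 and 103 without surface new controls 1 and 2. The count rose without surface new starved library 1 or 2. Starved libraries are no term of this contrast, but enter the estimate of the spread, the count filter and the scaling. Without surface new starved libraries 1 and 2, the filter kept 16343 and 16366 genes, against 15607. Without Pachón new starved libraries 1 and 2 it kept 16360 and 16354 genes, and the interaction gave 118 calls each time. The part of the filter in the rise was not tested. The surface batch contrast gave 405 and 473 calls without surface new controls 1 and 2, 697 without surface old control 2, and 1742 and 1736 without surface new starved libraries 1 and 2. For the Pachón batch contrast, 8 genes were called without Pachón new control 2, Pachón old starved library 2 or either Pachón new starved library, and 10 without Pachón old starved library 3.

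**Figure D2:**
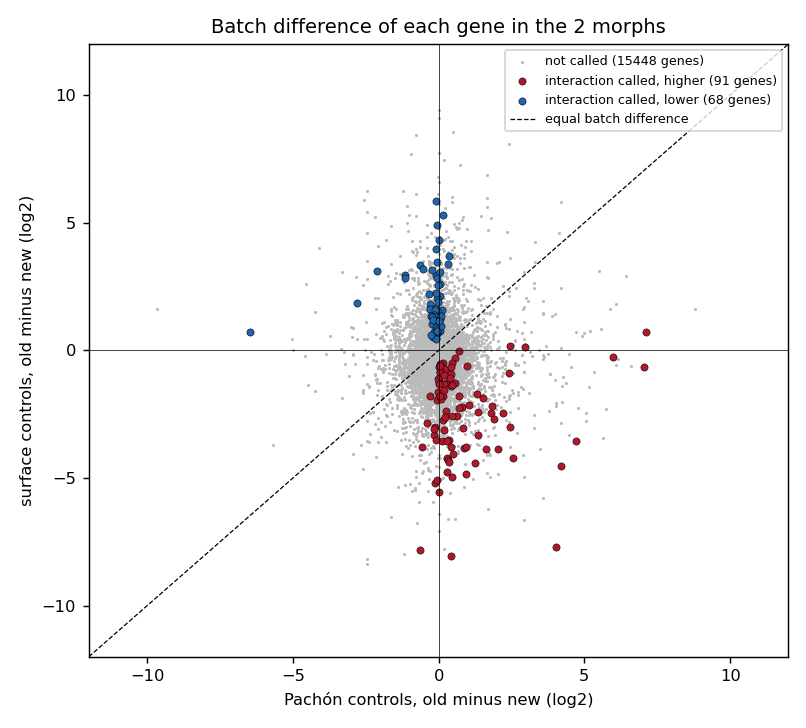
Old minus new difference (log2) of each tested gene in Pachón controls (horizontal axis) and surface controls (vertical axis). The 91 genes called higher (red) and the 68 called lower (blue) for the interaction lie mostly along the vertical axis, where the Pachón difference is near 0, with a few at the sides.

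Of the 159 genes, 114 carry a symbol. Several of the genes called higher were lower in surface old than in surface new controls and nearly level in Pachón controls. The gene sqor (ENSAMXG00000000587), whose product oxidises hydrogen sulfide in mitochondria, had 26.1, 30.3, 26.6 and 27 CPM in Pachón old, 32.1 and 28.6 in Pachón new, 4.53, 8.38, 7.44 and 3.75 in surface old and 334 and 108 in surface new controls. The Pachón libraries of both batches lay within 1 narrow band, and the surface libraries lay below it in the old and above it in the new batch. Its interaction was 5.05 ± 0.57 (log2 ± SE, edgeR adjusted p = 0.000148), from a difference of -0.14 ± 0.38 in Pachón and -5.19 ± 0.39 in surface controls. The gene lgmn (ENSAMXG00000021444), for the lysosomal protease legumain, had 99.2, 119, 123 and 125 CPM in Pachón old, 101 and 122 in Pachón new, 26.5, 31.1, 27.7 and 36.8 in surface old and 125 and 104 in surface new controls. Only the surface old libraries stood apart, and the interaction was 1.97 ± 0.23 (edgeR adjusted p = 0.000148).

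The genes TINAGL1 (ENSAMXG00000014689) and abcg2a (ENSAMXG00000000856) are not in the set named by rule and were chosen after their values were seen. TINAGL1, for a secreted matrix-associated protein, had 28.7, 25.1, 28.2 and 26.4 CPM in Pachón old, 28.7 and 32.1 in Pachón new, 3.14, 2.89, 3.05 and 2.04 in surface old and 26.6 and 29 in surface new controls (interaction 3.15 ± 0.33, edgeR adjusted p = 6.38e-05). The efflux transporter gene abcg2a had 25, 38.5, 32.7 and 27.6 CPM in Pachón old, 40.5 and 16.6 in Pachón new, 2.79, 6.85, 5.91 and 3.58 in surface old and 52.8 and 59.3 in surface new controls (interaction 3.65 ± 0.55, edgeR adjusted p = 0.00232). For both, the surface old group lay below every library of the other 3 groups. STEAP3 (ENSAMXG00000035265), for a reductase that acts on iron in endosomes, had values in opposite order in the 2 morphs. It had 6.09, 7.16, 8.39 and 7.45 CPM in Pachón old, 0.895 and 1.74 in Pachón new, 0.174, 1.07, 0.572 and 1.19 in surface old and 6.6 and 5.99 in surface new controls (interaction 5.47 ± 0.88, edgeR adjusted p = 0.00336). Its difference was 2.45 ± 0.65 in Pachón controls (adjusted p = 0.52) and -3.01 ± 0.58 in surface controls (adjusted p = 0.00398).

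Of 30 tested genes of fatty acid and triglyceride synthesis, 2 were called higher and 0 lower (0.583% and 0.436% of all genes), with a list median of -0.03. The desaturase gene fads2 (ENSAMXG00000015974), which acts in the synthesis of long polyunsaturated fatty acids, had 1.57, 2.16, 1.43 and 0.931 CPM in Pachón old, 0.895 and 2.13 in Pachón new, 0.698, 0, 1.34 and 0.511 in surface old and 29.6 and 29.2 in surface new controls. Only the surface new libraries were high (interaction 5.57 ± 0.99, edgeR adjusted p = 0.0071). Without Pachón new control 1 its adjusted p was 0.0776. The elongase gene elovl4b, of very long fatty acids, ranged over 1.49 to 6.6 CPM in Pachón old, 6.8 to 8.12 in Pachón new, 0.349 to 1.91 in surface old and 12.5 to 14.1 in surface new controls (interaction 3.21 ± 0.71, edgeR adjusted p = 0.0323). Its call was lost in 9 of 22 fits with a library removed, with an adjusted p of up to 0.155 (without Pachón new control 1).

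ENC1, for an actin-associated protein, crossed over like STEAP3. It ranged over 7.86 to 15.1 CPM in Pachón old, 2.87 to 3.67 in Pachón new, 2.13 to 4.2 in surface old and 11.5 to 16.2 in surface new controls (interaction 3.99 ± 0.74, edgeR adjusted p = 0.00996; 0.0951 and 0.0669 without Pachón new controls 1 and 2). The glucocorticoid receptor co-chaperone gene fkbp5 also had opposite orders, with 14.9 to 32.5 CPM in Pachón old, 4.12 to 5.99 in Pachón new, 0.523 to 7.06 in surface old and 12 to 36.3 in surface new controls (interaction 4.68 ± 1.00, edgeR adjusted p = 0.0307). The surface libraries of the batches did not overlap for fkbp5, and neither did the Pachón libraries (33.6% and 13.1% of all genes tested). The Pachón batch difference was 1.83 ± 0.55 for ENC1 and 2.22 ± 0.75 for fkbp5, and was called for neither. The vasoactive peptide gene adma (adrenomedullin) lay at 0.745 to 1.5 CPM in Pachón old, 0.537 to 1.16 in Pachón new and 0.851 to 4.77 in surface old controls, and at 60.9 and 28.8 CPM in the surface new controls (interaction 4.71 ± 1.02, edgeR adjusted p = 0.0307). Removing single libraries ended the calls of fkbp5 and adma in 7 and 7 of 22 fits, with adjusted p-values of up to 0.172 and 0.167.

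The related peptide gene adm2a rested on 1 library. It lay at 2.32 to 3.5 CPM in Pachón old and 3.58 to 5.41 in Pachón new controls, at 0 to 0.191 in surface old controls and at 64.5 and 2.75 in the surface new controls. Surface old controls held 3 counts and surface new controls 398, with CPM higher in the new batch by a ratio of 257 (95% counting interval 87.3 to 1252). The interaction was 7.16 (edgeR adjusted p = 0.0394), and 3.56 (0.372) without surface new control 1. The anion exchanger gene slc26a4, a symbol on 2 gene rows, had 4.91, 6.99, 5.18 and 5.03 CPM in Pachón old, 1.25 and 6.76 in Pachón new, 0, 0.152, 0.572 and 0.17 in surface old and 1.52 and 13 in surface new controls. The libraries of both new groups were far apart from each other, and the interaction of 5.42 ± 1.22 (edgeR adjusted p = 0.0412) was 3.18 without surface new control 2 (adjusted p = 0.308). For fam83fb the interaction was 4.72 ± 1.03 (edgeR adjusted p = 0.0314), and its call was lost in 6 of 22 fits with a library removed, with an adjusted p of up to 0.162.

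Further genes called higher came from the fixed lists. The asparagine synthetase gene asns, a target of the ATF4 stress response and a symbol on 3 gene rows, had an interaction of 3.04 ± 0.71 on the called row (ENSAMXG00000035392, edgeR adjusted p = 0.0432). On that row it ranged over 16.9 to 32.6 CPM in Pachón old, 12.4 to 14.5 in Pachón new, 8 to 15.1 in surface old and 24.9 to 73.1 in surface new controls. The lipoprotein receptor gene scarb1, which brings cholesterol into steroid-making cells, had 146, 96.7, 141 and 155 CPM in Pachón old, 107 and 99.7 in Pachón new, 103, 179, 101 and 121 in surface old and 290.2 and 238 in surface new controls (interaction 1.45 ± 0.33, edgeR adjusted p = 0.0384). Both surface new libraries exceeded the other 10. The keratin gene krt18b and the muscle intermediate filament gene desma lay at 2.13 to 3.82 and 0.349 to 2.86 CPM in surface old controls, below 16 to 20.1 and 11.2 to 13.5 CPM in surface new controls. Their interactions were 3.2 ± 0.68 and 2.89 ± 0.66 (edgeR adjusted p = 0.0288 and 0.0394). Removing single libraries ended the calls of asns, scarb1, krt18b and desma in 17, 9, 6 and 11 of 22 fits, with adjusted p-values of up to 0.266, 0.18, 0.155 and 0.172.

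For most genes called lower, the surface new controls were the low group. The gene with the smallest p of all was rhbdl2 (ENSAMXG00000039701), for a protease that cuts within membranes, chosen after its values were seen. It had 83.1, 88.2, 85.7 and 85.3 CPM in Pachón old, 87 and 94.3 in Pachón new, 113, 110.4, 118 and 106 in surface old and 27.7 and 19.9 in surface new controls. The interaction was -2.32 ± 0.19 (edgeR adjusted p = 2.87e-06), with a difference of -0.08 ± 0.13 in Pachón and 2.23 ± 0.15 in surface controls. The G protein subunit gene gnao1a (ENSAMXG00000020447), chosen in the same way, had 53.3, 46.3, 49.1 and 51.2 CPM in Pachón old, 45.5 and 58.4 in Pachón new, 54.6, 60.9, 60.5 and 45.6 in surface old and 10.8 and 15.5 in surface new controls (interaction -2.12 ± 0.22, edgeR adjusted p = 6.38e-05). In both genes the 2 surface new libraries lay below the other 10.

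The surface new libraries were also the lowest for a scaffold gene and a gene of receptor signalling. The liprin gene ppfibp1b (ENSAMXG00000020196), for a scaffold protein of cell adhesion, had 130.3, 123, 147 and 131 CPM in Pachón old, 133 and 136 in Pachón new, 61.4, 105, 103 and 121 in surface old and 14.7 and 18.5 in surface new controls (interaction -2.57 ± 0.39, edgeR adjusted p = 0.00232). GAB2 (ENSAMXG00000010088), for a docking protein of growth factor receptors, had 33.4, 43.8, 33.6 and 38 CPM in Pachón old, 31.5 and 26.5 in Pachón new, 53.9, 52.1, 39.1 and 24.4 in surface old and 3.89 and 2.59 in surface new controls (interaction -3.35 ± 0.53, edgeR adjusted p = 0.0031). Its adjusted p by voom with sample weights was 0.0509. FAM171B (ENSAMXG00000003418), a symbol on 2 gene rows, had 22.6, 26.6, 16.2 and 19.9 CPM in Pachón old, 18.6 and 15.5 in Pachón new, 29.5, 29.8, 42.7 and 24.9 in surface old and 2.71 and 3.4 in surface new controls (interaction -3.04 ± 0.39, edgeR adjusted p = 0.000427). On its other row the interaction was 0.05 (adjusted p = 0.97).

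The insulin, IGF and FOXO list had 0 genes called higher and 2 lower of 39 tested (0.583% and 0.436% of all genes), with a median of -0.06. These were akt3a, a kinase gene of insulin signalling, and igf1ra, a receptor gene for insulin-like growth factor. The level of akt3a ranged over 12.7 to 17.3 CPM in Pachón old, 14.7 to 16 in Pachón new and 4.6 to 8.68 in surface old controls, and was 1.52 and 0.81 in the surface new controls (interaction -2.57 ± 0.49, edgeR adjusted p = 0.0121; 0.115 without surface new control 2 and 0.0606 without Pachón new control 2). The level of igf1ra ranged over 16 to 22.8 CPM in Pachón old, 18.6 to 24.2 in Pachón new and 16 to 23.1 in surface old controls, and was 8.46 and 6.48 in the surface new controls (interaction -1.52 ± 0.34, edgeR adjusted p = 0.0354). Of the lists, other genes called lower were the glutathione transferase gene GSTP1 (-1.36, edgeR adjusted p = 0.0237), the transcription factor gene nfil3-5 of the circadian list (-1.11, 0.0321) and the histone demethylase gene kdm5bb (-0.74, 0.0385). Removing single libraries ended the calls of igf1ra, GSTP1, nfil3-5 and kdm5bb in 10, 2, 7 and 12 of 22 fits, with adjusted p-values of up to 0.19, 0.139, 0.174 and 0.169.

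The remaining large values among genes called lower belonged to genes with few reads in the surface new controls. RNF207, for a ring finger protein, lay at 13.4, 32.9, 11.6 and 14.8 CPM in surface old controls, against 0.846 and 1.46 CPM in surface new controls (interaction -4.03 ± 0.93, edgeR adjusted p = 0.0412). The liver-type fatty acid binding gene fabp1a had 194 counts in surface old and 3 in surface new controls, a ratio of summed CPM of 33.4 (95% counting interval 11.3 to 163), with an adjusted p of 0.0354 for the interaction. For the metal transporter family gene CNNM1, the elongation factor gene tcea3 and the muscle Z-disc gene myoz1b, the interactions were -4.31 ± 0.96, -3.97 ± 0.81 and -3.99 ± 0.89 (edgeR adjusted p = 0.0354, 0.0219 and 0.0354). The transcription factor gene dmrta2 had -4.12 ± 0.83, the secreted factor gene ism2b -3.04 ± 0.57 and the otogelin-like gene OTOGL -3.05 ± 0.66 (edgeR adjusted p = 0.0188, 0.0112 and 0.0307). For tcea3 and myoz1b the Pachón old controls were low as well, at 0.786 to 1.5 and 0.559 to 2.16 CPM. Their surface old controls lay at 3.2 to 12 and 3.43 to 10.7 CPM. Pachón old lay below Pachón new controls for dmrta2 (4.72 to 6.96 against 9.85 to 17.8 CPM) and myoz1b (against 2.51 to 3.4). In each of the 8 genes from RNF207 to OTOGL, both surface new libraries lay below all 4 surface old libraries. These 8 genes were named for large interactions in the same libraries. The surface old and new libraries did not overlap for 33.6% of all genes tested. The potassium channel subunit gene abcc8 was different, with overlapping surface libraries (1.87 to 25 CPM in old and 1.13 to 5.41 in new) and 0.333 to 0.745 CPM in Pachón old against 3.09 to 4.66 in Pachón new controls (interaction -4.62 ± 1.1, edgeR adjusted p = 0.0499). Removing single libraries ended the calls of RNF207, fabp1a, CNNM1, tcea3, myoz1b, dmrta2, ism2b, OTOGL and abcc8 in 12, 10, 8, 3, 8, 3, 2, 9 and 17 of 22 fits, with adjusted p-values of up to 0.202, 0.29, 0.152, 0.153, 0.147, 0.127, 0.0972, 0.136 and 0.181.

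**Figure D3:**
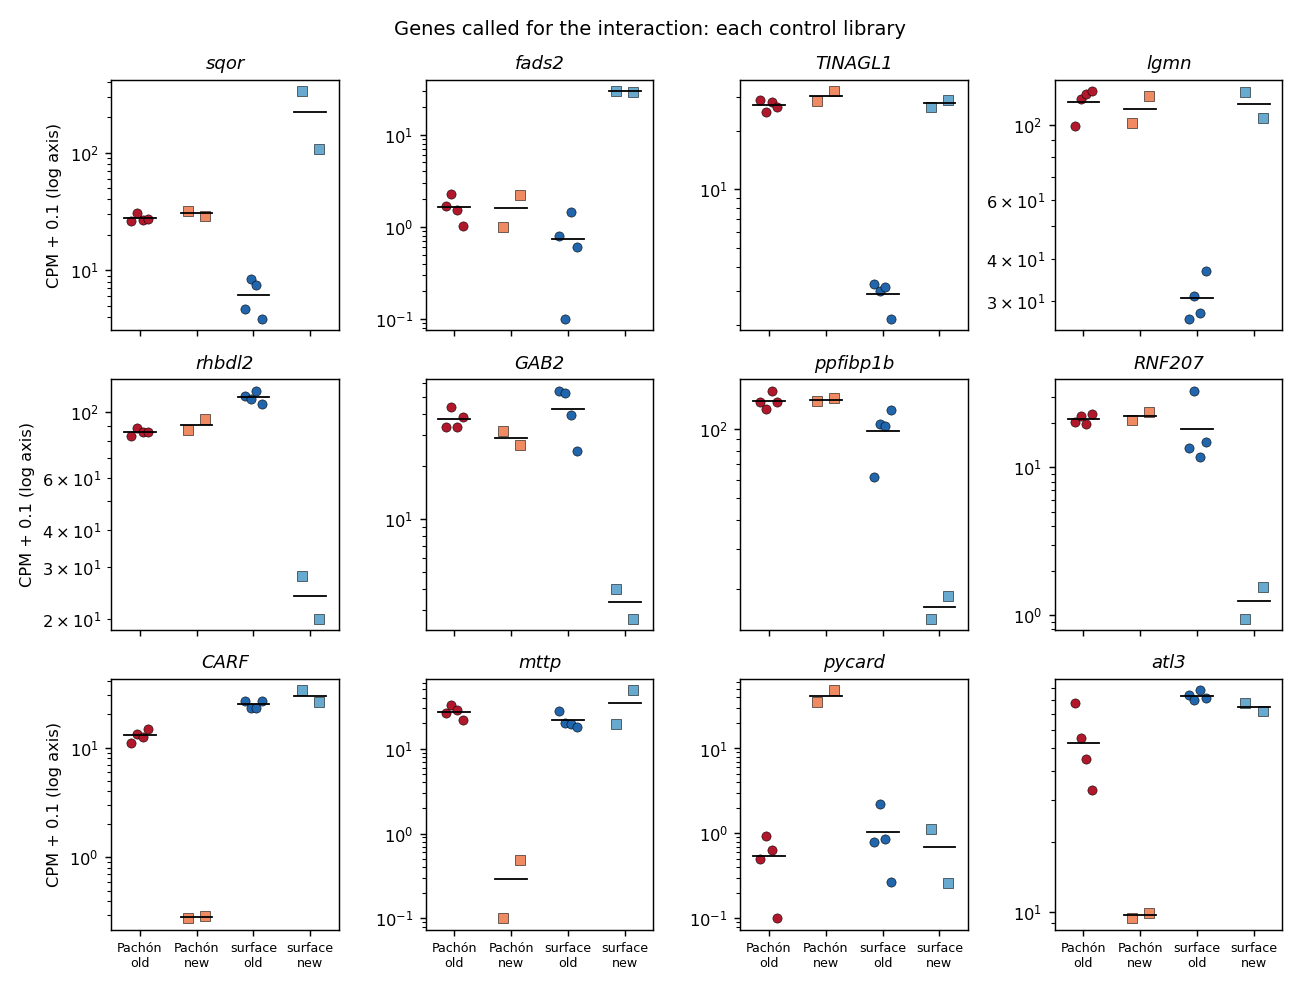
CPM (plus 0.1, log axis) of 12 genes called for the interaction in each of the 12 control libraries, with a bar at the group mean. In the upper and middle rows the Pachón groups lie near each other, and 1 or both surface groups stand apart. For GAB2 the Pachón old libraries (33.4 to 43.8 CPM) lie just above the Pachón new libraries (26.5 and 31.5 CPM). In the bottom row the 2 Pachón new libraries stand apart from the 4 Pachón old libraries.

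A small set of genes had the reverse arrangement, with a batch difference in Pachón controls and none called in surface controls. All 5 genes called in the Pachón batch contrast were of this kind. Among them, pycard (ENSAMXG00000043202), a symbol on 2 gene rows whose product is an adaptor of the inflammasome, had 0.393, 0.832, 0.535 and 0 CPM in Pachón old, 35.5 and 48.1 in Pachón new, 0.698, 2.13, 0.763 and 0.17 in surface old and 1.02 and 0.162 in surface new controls. Only the Pachón new libraries were above 3 CPM, the interaction was -7.18 ± 1.08 (edgeR adjusted p = 0.00232) and the Pachón difference -6.47 ± 0.62 (adjusted p = 4.69e-05). The atlastin gene atl3 (ENSAMXG00000008241), for a protein that fuses membranes of the endoplasmic reticulum, had 77.6, 54.9, 44.8 and 33 CPM in Pachón old, 9.31 and 9.85 in Pachón new, 83.7, 80.4, 88 and 81.9 in surface old and 77.5 and 71.7 in surface new controls (interaction 2.29 ± 0.36, edgeR adjusted p = 0.00276). The mitochondrial oxoglutarate carrier gene slc25a11 (ENSAMXG00000043690) had 63.3, 60.3, 55.9 and 70.9 CPM in Pachón old and 38.3 and 38.3 in Pachón new controls (interaction 0.72 ± 0.15, edgeR adjusted p = 0.0226). Its surface libraries ranged over 79.7 to 87.7 CPM in old and 78.9 to 88.3 in new controls. The genes atl3 and slc25a11 were chosen after their values were seen, since they complete the 5 together with pycard, CARF and ENSAMXG00000042898, which has no symbol (interaction 2.83). Without surface new control 1 or either Pachón new control, the adjusted p of slc25a11 was 0.118, 0.104 and 0.11.

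CARF, mttp and b3gnt5a were nearly without reads in the Pachón new controls. The Pachón batch difference was called for CARF (edgeR adjusted p = 0.0119) but not for mttp (0.23) or b3gnt5a (0.0611). CARF (ENSAMXG00000024302) had 11, 13.3, 12.5 and 14.7 CPM in Pachón old, 0.179 and 0.193 in Pachón new, 26.5, 22.7, 22.7 and 26.4 in surface old and 33 and 25.9 in surface new controls. The Pachón old libraries held 285 counts and the Pachón new libraries 2, a ratio of summed CPM of 69.5 (95% counting interval 19.1 to 576), and the interaction had an adjusted p of 0.0037 (0.0518 and 0.052 without Pachón new controls 1 and 2). The gene mttp (ENSAMXG00000034773), for the triglyceride transfer protein of lipoprotein assembly, had 26.5, 32.3, 28.4 and 21.6 CPM in Pachón old, 0 and 0.386 in Pachón new, 28.1, 20.1, 19.7 and 18.1 in surface old and 19.6 and 48.6 in surface new controls. With 604 counts in Pachón old and 2 in Pachón new libraries, the ratio was 147 (95% counting interval 40.6 to 1219), and the adjusted p of the interaction was 0.0345. The glycolipid enzyme gene b3gnt5a (ENSAMXG00000025900) had 2.16, 4.99, 3.39 and 0.931 CPM in Pachón old controls and 0 counts in both Pachón new controls, at least 5.28-fold higher in old with a floor of 3 counts per library (adjusted p of the interaction 0.0425). Intervals and floors cover counting error only. The calls of mttp and b3gnt5a were lost in 10 and 15 of 22 fits with a library removed, with adjusted p-values of up to 0.197 and 0.2.

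The calls of sqor, STEAP3, lgmn, TINAGL1, abcg2a, FAM171B, ppfibp1b, rhbdl2, gnao1a, pycard and atl3 held in all 31 alternative fits. Of the 42 called genes named in the text, 26 lost their call without Pachón new control 1, 26 without Pachón new control 2, 20 without surface new control 1 and 21 without surface new control 2. Leaving out 1 old control ended 4 to 19 of these calls, and leaving out 1 starved library 0 to 10.

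Most gene lists for somatic cells had surface batch medians below 0, for cells of the ovary and for cells foreign to it. Skeletal muscle genes (16 tested) had a surface batch median of 0.11 and a median interaction of -0.09, with 0 calls (1.02% of all genes). Their summed level was 648 to 946 CPM in surface old and 565 to 612 in surface new controls. Surface batch medians of epithelial and neutrophil genes lay nearer 0, at -0.03 and -0.13. Of 27 tested genes of stroma and extracellular matrix, 0 were called for the interaction (1.02% of all genes). Positive values were found for 24 of the 27 (7681 of 15607 over all genes), and the median was 1.57, against -0.01 over all genes. The list's median old minus new difference was -0.02 in Pachón and -1.69 in surface controls. In the surface batch contrast 1 of these genes was called higher and 10 lower (3% and 4.36% of all genes). The Pachón batch contrast called 0 of them, but it called only 0.032% of all genes. The collagen gene col1a1b had 14, 24.5, 10.4 and 5.59 CPM in Pachón old, 8.95 and 18.2 in Pachón new, 4.71, 1.98, 13 and 5.96 in surface old and 37.4 and 45.7 in surface new controls (interaction 2.72 ± 0.97, edgeR adjusted p = 0.213). Its partner chains col1a1a and col1a2 had interactions of 2.60 ± 0.68 and 3.10 ± 0.91 (adjusted p = 0.0729 and 0.111), and the fibronectin gene fn1b 2.78 ± 0.79 (adjusted p = 0.101). Summed over all 35 genes of the list, of which 0 were without a count, levels were 1042 to 1203 CPM in Pachón old, 1111 to 1210 in Pachón new, 1014 to 1389 in surface old and 1480 to 1486 in surface new controls. List medians cover only members that passed the count filter, such as 22 of 36 macrophage and 12 of 25 endothelial genes. A gene with few reads can pass through the 2 surface new libraries alone, and its interaction is then likely to be positive. The part of this in the medians was not tested.

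Markers of macrophages had a median interaction of 2.11 over 22 tested genes, of which 19 were positive. Of these genes 1 was called higher (lgmn) and 0 lower (0.583% and 0.436% of all genes). Their summed level over 36 genes was 1158 to 1425 CPM in Pachón old, 1099 to 1284 in Pachón new, 881 to 948 in surface old and 1071 to 1130 in surface new controls, and the 2 rows of MFAP4 were at 0 in every control. The antigen presentation gene cd74a had 12, 14.3, 4.28 and 6.14 CPM in Pachón old, 6.45 and 10.4 in Pachón new, 6.45, 3.2, 9.35 and 8.68 in surface old and 44.3 and 20.1 in surface new controls (interaction 2.35 ± 0.68, edgeR adjusted p = 0.106). Both surface new values were above the 10 others for cd74a. Of 25 complement and coagulation genes, 0 were called for the interaction (median 1.34), and 0 were called higher and 6 lower in the surface batch contrast (3% and 4.36% of all genes). By limma on scaled CPM the median interaction was 1.23 for macrophage and 0.56 for complement and coagulation genes.

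Granulosa cell genes, which mark the cells that surround the oocyte, had a median interaction of 1.31 over 19 tested genes, 0 of them called. The list summed to 65.4 to 96.4 CPM in Pachón old, 69.1 to 129 in Pachón new, 51.0 to 76.9 in surface old and 96.4 to 126 in surface new controls. The ovarian transcription factor gene foxl2b had 1.57, 1.33, 1.96 and 2.79 CPM in Pachón old, 1.79 and 2.13 in Pachón new, 1.22, 1.07, 1.34 and 1.02 in surface old and 3.89 and 4.86 in surface new controls (interaction 1.87 ± 0.77, edgeR adjusted p = 0.29). The aromatase gene cyp19a1a, of estrogen synthesis, had an interaction of 0.50 ± 0.82 (adjusted p = 0.858), which changed sign without Pachón new control 2. Of 14 genes of steroid synthesis and gonadotropin reception, 1 was called higher (scarb1) and 0 lower (0.583% and 0.436% of all genes). That list summed to 190 to 259 CPM in Pachón old and 198 to 210 in Pachón new controls. In surface controls it summed to 188 to 247 CPM in old and 381 to 398 in new. Of these surface sums, scarb1 alone held a mean of 126 CPM in old and 264 in new controls. The median interaction of the list was 0.54, and lay between 0.26 and 1.36 over the alternative fits.

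Endothelial genes (12 tested, median 1.35) had 0 calls and smooth muscle genes (15 tested, median 1.2) 1 call, desma (1.02% of all genes were called). By limma on scaled CPM these medians were 0.33 and 0.66, and without surface new control 2 that of smooth muscle was 0.74. In starved fish they were -0.45 for endothelial and 0.59 for smooth muscle genes. The endothelial list summed to 31.7 to 49.4 CPM in Pachón old, 34.6 to 44.8 in Pachón new, 19.9 to 58.2 in surface old and 67.5 to 76.6 in surface new controls. The smooth muscle list summed to 1295 to 1758 CPM in Pachón old, 1717 to 1818 in Pachón new, 1727 to 2105 in surface old and 1775 to 2033 in surface new controls, so its surface batches overlapped. The smooth muscle actin gene acta2 had 4.84 to 12 CPM in Pachón old, 10.6 to 13.5 in Pachón new, 1.22 to 7.82 in surface old and 10.8 to 12.8 in surface new controls (interaction 1.2 ± 0.80, edgeR adjusted p = 0.562). Hepatocyte (17 tested, median 0.93), ciliated cell (12, 0.91) and adipocyte genes (13, 0.79) had 0 calls. The adipocyte median was 0.10 without surface new control 2 and 1.57 without Pachón new control 2. The ciliated cell median was 0.44 without Pachón old control 3 and 1.39 without Pachón new control 2, and 0.44 by limma and 1.62 with the stricter filter. The hepatocyte median was 1.40 without Pachón new control 1. In starved fish the medians were 2.04 for hepatocyte and -0.02 for both ciliated cell and adipocyte genes. Genes of exocrine pancreas and gut, tissues foreign to the ovary, had a median interaction of 1.00 over 6 tested genes, with 0 calls, and a median batch difference of -0.07 in Pachón and -1.21 in surface controls. Their summed level over 24 genes was 7.45 to 12.4 CPM in Pachón old, 9.49 to 12.4 in Pachón new, 5.23 to 23.7 in surface old and 31.3 to 46.4 in surface new controls, with fabp2, PLA2G1B and ptf1a at 0 in every control. Their median interaction was 1.95 without Pachón new control 2, 0.44 by voom and -0.04 in starved fish. The part that a changed share of these cell types, or the larger number of genes detected in the surface new controls, has in the called genes was not tested.

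**Figure D4:**
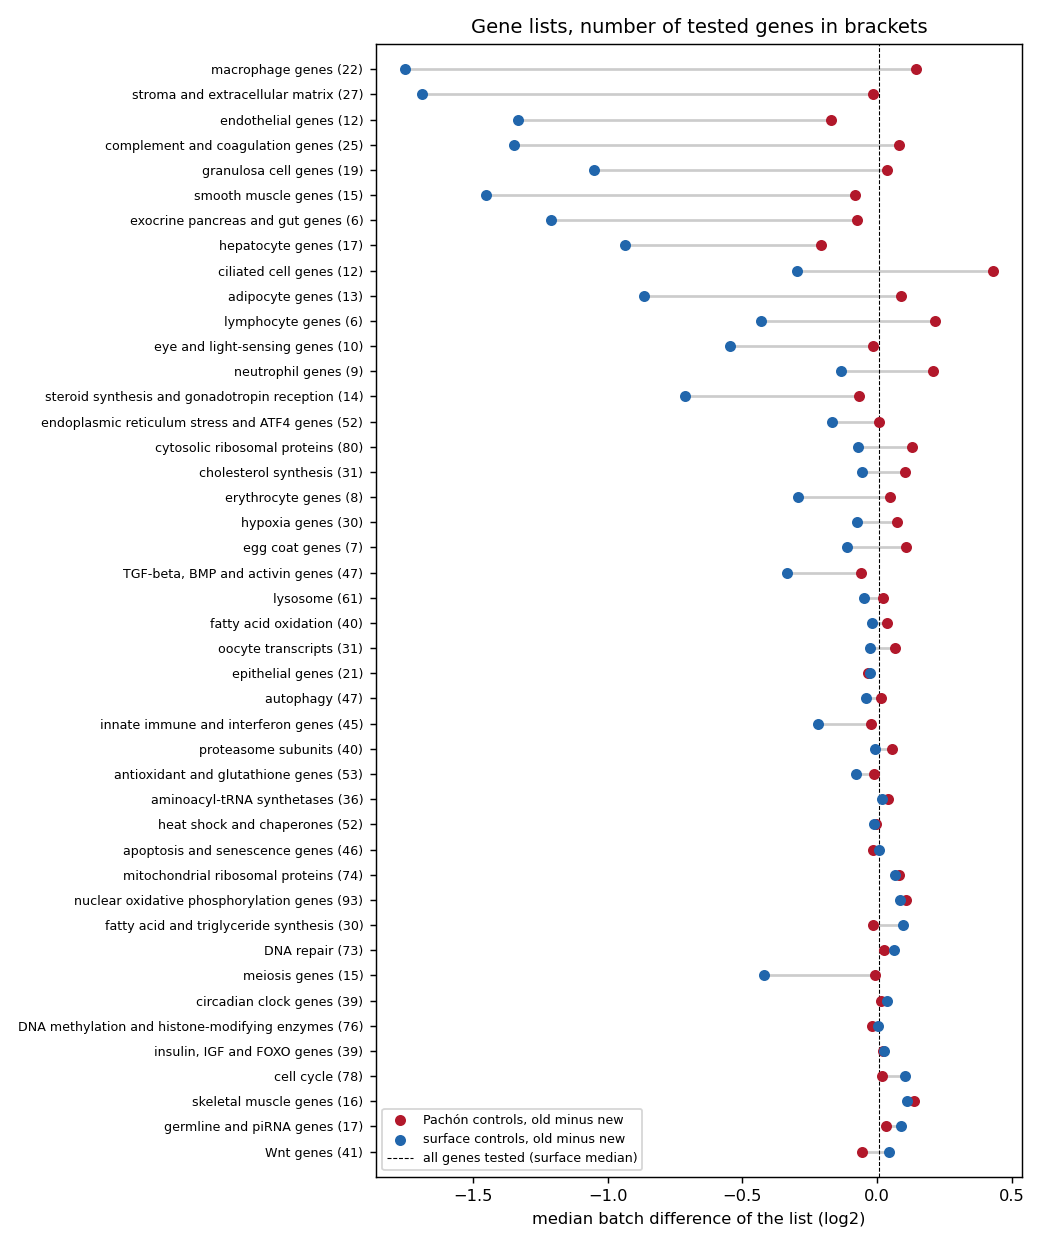
Median old minus new difference (log2) of each gene list in Pachón (red) and surface controls (blue), ordered by the median interaction. Lists of macrophage, stroma, endothelial, granulosa and smooth muscle genes have surface medians of -1.75 to -1.05 and Pachón medians within 0.2 of 0. Genes of exocrine pancreas and gut lie at -1.21 in surface and -0.07 in Pachón controls. Most lists of cell machinery lie near 0 in both morphs. Medians cover only members that passed the count filter, such as 22 of 36 macrophage, 12 of 25 endothelial and 73 of 73 DNA repair genes. The part of the filter in the difference between lists was not tested.

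Most lists of oocyte genes and general cell machinery had medians near 0 in both morphs. Meiosis genes (15 tested) had a batch median of -0.42 in surface and -0.01 in Pachón controls, with a median interaction of -0.03 and 0 calls. Genes of endoplasmic reticulum stress and ATF4 (52 tested) had batch medians of -0.17 and 0.01. In the surface batch contrast 1 of these 52 was called higher and 5 lower. Of 31 oocyte transcripts 0 were called for the interaction (median 0.08), while 1 was called higher and 1 lower in the surface batch contrast (3% and 4.36% of all genes). The surface batch difference of bmp15 was 0.51 ± 0.12 (edgeR adjusted p = 0.0163). The median was -0.16 without Pachón new control 2 and 0.34 without Pachón new control 1. For gdf9 the interaction was 0.38 ± 0.16, for bmp15 -0.58 ± 0.17, for the zygote factor gene zar1 0.23 ± 0.39 and for the oocyte transcription factor gene figla 0.18 ± 0.55 (edgeR adjusted p = 0.296, 0.109, 0.861 and 0.932). The values of zar1 and figla changed sign without Pachón new control 2. Egg coat genes (7 tested, median 0.17), cytosolic ribosomal proteins (80, 0.20), nuclear genes of oxidative phosphorylation (93, -0.03), DNA repair genes (73, -0.03) and proteasome subunits (40, 0.05) had 0 calls each. Of the 80 cytosolic ribosomal protein genes, 73 had positive values (7681 of 15607 over all genes). Without Pachón new control 2 the median was -0.01 for ribosomal proteins and -0.08 for egg coat genes. Without Pachón new control 1 these medians were 0.47 and 0.61. In the cell cycle list 0 of 78 genes were called for the interaction. In the surface batch contrast 5 were called higher and 0 lower (3% and 4.36% of all genes). At an unadjusted p under 0.05 in edgeR's test, the interaction was higher for 1 of the 78 and lower for 13. Over all 15607 genes these numbers were 1082 and 971. The replication helicase gene mcm5 had 209 to 226 CPM in Pachón old, 204 to 219 in Pachón new, 288 to 306 in surface old and 198 to 212 in surface new controls (interaction -0.51 ± 0.16, edgeR adjusted p = 0.14). Of 45 innate immune and interferon genes 0 were called higher and 1 lower (pycard) for the interaction. Of 30 hypoxia genes 1 was called higher (adma) and 0 lower. Over all genes the shares were 0.583% higher and 0.436% lower.

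The same contrast in starved fish used 4 Pachón old, 2 Pachón new, 2 surface old and 2 surface new libraries. None of these is a term of the control contrast, though both contrasts share the count filter, the scaling and the estimate of the spread. Among all 22 libraries, surface new starved library 2 had the lowest TMM factor (0.833, median 1.01). It also had the largest share of counts in its top gene (1.07%, median 0.509%). The starved contrast gave 135 called genes (0.865%), 82 higher and 53 lower. Of the 159 genes called in controls, 134 (84.3%, against 61.7% of all genes tested) had the same sign in starved fish, and 33 were called there in the same direction and 0 in the opposite one. By direction, 81 of the 91 genes called higher and 53 of the 68 called lower kept their sign. At an unadjusted p under 0.05 in starved fish, 89 of the 159 had the same sign, against 1653 of all 15607 genes tested. In either direction, 13.3% of all genes passed that threshold. The starved count was 76 and 84 without surface old starved libraries 1 and 2, 711 (236 higher and 475 lower) and 295 (182 and 113) without surface new starved libraries 1 and 2, and 46 (24 and 22) and 48 (21 and 27) without Pachón new starved libraries 1 and 2.

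Several of the genes described above had like values in the starved libraries. For rhbdl2 these were 93.8, 94.8, 67.1 and 91.7 CPM in Pachón old, 94.9 and 89.7 in Pachón new, 115 and 122 in surface old and 13.7 and 15.2 in surface new libraries (interaction -3.12 ± 0.21, edgeR adjusted p = 7.4e-08). For sqor they were 23.3, 28.8, 31.5 and 28.1 CPM in Pachón old, 28.6 and 28.3 in Pachón new, 3.89 and 11.2 in surface old and 94.1 and 169 in surface new libraries (interaction 4.1 ± 0.62, edgeR adjusted p = 0.00254). In both genes a surface batch again stood apart from the Pachón libraries. The interaction in starved fish was 2.17 ± 0.25 for lgmn, -4.94 ± 0.48 for ppfibp1b, 3.5 ± 0.60 for abcg2a, -4.21 ± 0.60 for GAB2 and 6.22 ± 1.23 for fads2 (edgeR adjusted p = 0.000126, 2.79e-05, 0.00674, 0.00112 and 0.0177). On the Pachón side, pycard had 1.54, 0.389, 1.35 and 0.654 CPM in Pachón old and 76.7 and 55.6 in Pachón new starved libraries (interaction -10.37 ± 1.11, edgeR adjusted p = 6.4e-05). For CARF the starved interaction was 3.85 ± 0.89 (adjusted p = 0.0472). Pachón old starved library 3 was low for CARF and mttp, at 1.01 and 0.168 CPM against 8.76 to 14.4 and 20.9 to 38.0 CPM in the other 3 Pachón old starved libraries.

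For other called genes the starved values were near 0. TINAGL1 had 1.15 and 3.31 CPM in surface old and 2.74 and 1.93 in surface new starved libraries, so both surface batches were low (interaction 0.36 ± 0.42, edgeR adjusted p = 0.802). FAM171B had 14.8 and 22.9 CPM in surface old and 21.7 and 21.9 in surface new starved libraries (interaction 0.37 ± 0.37, edgeR adjusted p = 0.751). For adma the interaction was -0.34 ± 1.12 in starved fish (adjusted p = 0.954). The interaction itself was tested for a difference between control and starved fish, and 2 genes were called (926 with an unadjusted p under 0.05). These were FAM171B, with a control minus starved difference of -3.41 ± 0.54, and FAM83B, with -4.03 ± 0.64 (edgeR adjusted p = 0.0381 for each), which was not called in controls (interaction 0.66). For TINAGL1 that difference was 2.79 ± 0.53 (adjusted p = 0.114).

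**Figure D5:**
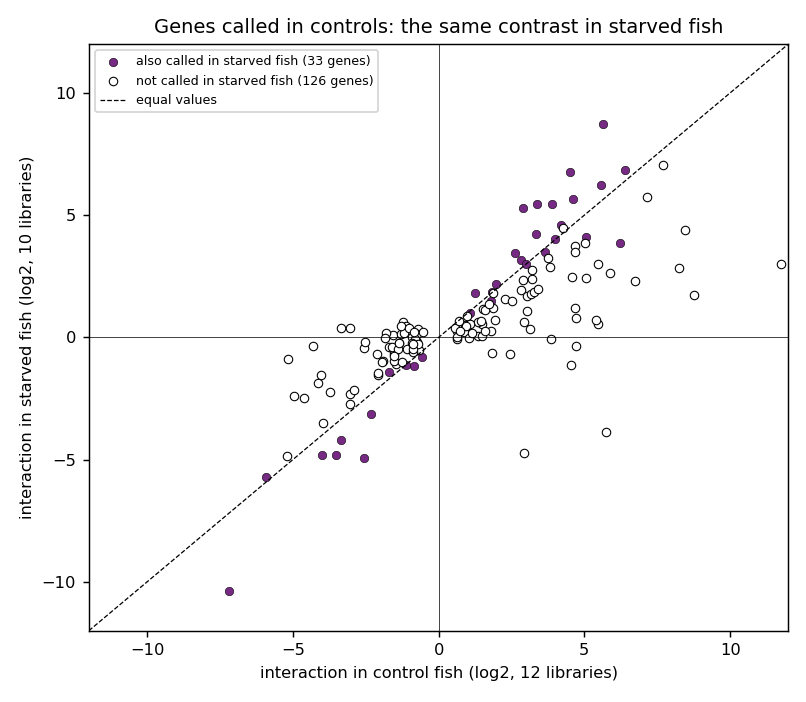
Interaction (log2) of the 159 genes called in controls, plotted against the same contrast in starved fish, with filled points for the 33 genes also called there. Of the 159 points, 134 have the same sign on both axes, and pycard lies lowest, at -7.18 in controls and -10.37 in starved fish.

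Read the other way, the interaction is the Pachón minus surface difference in the old batch less that in the new batch, from the same libraries. Between morphs, 30.4% of the tested genes were called in old controls (4 against 4 libraries) and 14.9% in new controls (2 against 2). The median size of the morph difference was 0.356 in old and 0.389 in new controls. With unequal numbers of libraries, neither the shares called nor these median sizes can be compared between the batches. For sqor the morph difference was 2.18 ± 0.36 in old and -2.86 ± 0.44 in new controls, so its sign depended on the batch (edgeR adjusted p = 0.000174 and 0.000287). For lgmn it was 1.93 ± 0.14 in old and -0.04 ± 0.18 in new controls (adjusted p = 8.97e-09 and 0.909). The gene rhbdl2 also had opposite signs, with -0.39 ± 0.10 in old and 1.93 ± 0.16 in new controls (adjusted p = 0.00848 and 2.93e-07). Of the 159 genes, 26 had morph differences called in both batches with opposite signs, and over all genes tested there were 26. The interaction is the difference of these morph differences, so this overlap is no separate result. For pycard the morph differences were -1.07 ± 0.74 in old and 6.12 ± 0.79 in new controls (adjusted p = 0.291 and 4.51e-05). For mttp they were 0.34 ± 0.61 and -7.37 ± 1.52 (adjusted p = 0.705 and 0.00361), the value in the new batch resting on 2 Pachón counts.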

How the data were processed

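Ovary RNA was sequenced in 22 libraries. The authors deposited a table of raw read counts for 27420 genes, whose sample columns carry the library names, and a table of a depth-scaled CPM signal for 14814 of those genes. Each column of that table is a constant multiple of the deposited counts, sums to 937145 to 1202370 and served 1 alternative. STAR 2.7.10b and RSEM are named in the submitters' processing notes, without their roles. Neither build, annotation nor strand setting is given in the sources used here, and overlapping and antisense genes may share reads. Counts on near-identical copies are likewise uncertain. The 4 rows naming no gene entered neither library sizes nor tests, and in the controls held 0.255% to 0.321% (ambiguous), 10.7% to 17.6% (multimapping), 16.8% to 18.4% (no feature) and 7.56% to 11.0% (unmapped) of listed reads.

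The filterByExpr function, with a count of at least 10 and a total of at least 15, kept 15607 genes (12070 with a symbol in the table). Counts were scaled by TMM and fitted with edgeR 4.0.16 (robust quasi-likelihood, R 4.3.3) as 8 group means over all 22 libraries. Contrasts of these means gave the interaction, the batch difference of each morph and the repeat in starved fish. P-values were adjusted over all 15607 genes by the Benjamini-Hochberg method, and the standard error is the log2 value divided by the square root of F. Genes with counts of 3 or fewer in a group carry count ratios with exact 95% intervals. The procedure was also run on simulated data. Changes were placed only in the surface new controls and in more abundant genes. The simulation therefore does not cover changes in genes with few reads.

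Genes were named from the 12 with the largest called change per direction at a mean log2 CPM of at least 1, from the 3 members of each list with the smallest interaction p where that was under 0.05, and from gdf9, bmp15, zar1, figla, foxl2b, cyp19a1a, acta2 and col1a1b. Others are marked where they occur. For a symbol on several gene rows, the values are those of the row with the smallest interaction p, unless another row is named. The other rows of pycard, slc26a4 and asns are not given, so their values stand for 1 row and not for the symbol. The comparison and the 44 gene lists were chosen with earlier results of these data known. Alternatives were DESeq2 1.42.0, RLE factors, no scaling factors, no filter, a stricter filter (CPM of 1 in 4 controls), the control (or starved) libraries fitted alone, voom with sample weights, limma 3.58.1 on log2(scaled CPM + 1), a replicate block, and leaving out each of the 22 libraries. Where that left 1 library in a group, it was assumed to vary like the other groups.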

Additional observations from a re-analysis of the deposited data

Results flagged for a closer look

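The interaction of morph with batch, tested as a contrast in its own right, was called for 159 genes in controls. The following log2 values are those of the named genes among them, each past an edgeR adjusted p of 0.05. Genes of metabolism and transport had 5.05 (sqor), 5.47 (STEAP3), 5.57 (fads2), 3.21 (elovl4b), 3.65 (abcg2a), 5.42 (slc26a4), 7.71 (mttp), 6.40 (b3gnt5a), 3.04 (asns), 1.45 (scarb1), 1.97 (lgmn) and 0.72 (slc25a11). Other genes called higher had 6.23 (CARF), 3.99 (ENC1), 4.68 (fkbp5), 4.71 (adma), 7.16 (adm2a), 4.72 (fam83fb), 3.2 (krt18b), 2.89 (desma), 3.15 (TINAGL1) and 2.29 (atl3). Genes of signalling and regulation called lower had -7.18 (pycard), -2.32 (rhbdl2), -2.12 (gnao1a), -2.57 (ppfibp1b), -3.35 (GAB2), -2.57 (akt3a), -1.52 (igf1ra), -1.11 (nfil3-5), -0.74 (kdm5bb), -4.12 (dmrta2) and -3.97 (tcea3). The other genes called lower had -3.04 (FAM171B), -3.04 (ism2b), -3.05 (OTOGL), -4.31 (CNNM1), -4.97 (fabp1a), -3.99 (myoz1b), -4.03 (RNF207), -4.62 (abcc8) and -1.36 (GSTP1). Between control and starved fish, the interaction differed by -3.41 for FAM171B and by -4.03 for FAM83B.

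Single libraries stood far from the other 3 of their group in 7 of 152 groups of 4 values, and chance alone flags about 1 group in 20. In Pachón old controls, slc26a4 was at 6.99 CPM in library 2 (others 4.91 to 5.18), OTOGL at 9.64 CPM in library 3 (4.1 to 4.72) and mcm5 at 226 CPM in library 2 (209 to 210.1). In surface old controls, ism2b was at 43.8 CPM in library 1 (18.1 to 21.3), myoz1b at 10.7 CPM in library 2 (3.43 to 4.01) and RNF207 at 32.9 CPM in library 2 (11.6 to 14.8). The TMM factor of surface old control 3 was 1.04, against 1.01 in each of the others.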

How the results depend on the processing

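Under DESeq2 the calls were 435 for the interaction in controls, 19 for the Pachón batch contrast and 400 in starved fish. With the control or starved libraries fitted alone they were 318, 20 and 84. Voom with sample weights gave 288, 1807 for the surface batch contrast and 22 in starved fish. No filter and limma on scaled CPM each gave 8 in the Pachón batch contrast. Replicate numbers were not taken as pairs in the main fit. The 14 same-number pairs had correlations of -0.0513 to 0.101 between their deviations (median 0.031). The 38 other pairs had -0.133 to 0.133 (median -0.0088). In groups of 2 libraries the deviations mirror each other, so these values cannot decide whether libraries were paired. With a replicate block the interaction gave 97 calls, the Pachón batch contrast 3 and the starved contrast 73. Leaving out 1 library gave 64 to 301 calls for the interaction, 4 to 10 for the Pachón batch contrast, 405 to 1742 for the surface batch contrast and 46 to 711 in starved fish. The other scalings and filters stayed within 1.5 times. Of the 42 called genes named, DESeq2 and the stricter filter ended 0 calls, RLE factors 2, fitting alone 3, no scaling 5, limma 7, no filter 9, voom 14 and the block 21. Without single libraries the interaction ranged over -0.0316 to 0.564 for zar1, -0.0899 to 0.524 for figla and from -0.0715 for cyp19a1a, each lowest without Pachón new control 2. The cause of these shifts was not tested. With 2 libraries in each new group, depth and number limit calls of genes with few reads, and 4 called genes had a group without a count.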
